A study of Mus musculus with 6 samples.

Results

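The genes examined here are 10 genes known as transcriptional targets of YAP or as their close relatives, namely *Ccn1*, *Ccn2*, *Ccn3*, *Ankrd1*, *Axl*, *Crim1*, *Nuak2*, *Dlc1*, *Arhgef17* and *Ptpn14*. They were listed by name, without a threshold on their values, although earlier results of these data were known. All 10 were found by symbol among the 55421 genes of the count table. RNA was sequenced from whole retinas of 2-month-old mice that were homozygous for a floxed *Yap* allele. The 3 control retinas (YR612, YR613 and YR615) had the genotype Yapfl/fl, and the 3 *Yap* cKO retinas (YR711, YR713 and YR714) had the genotype Yapfl/fl;RaxCreERT2. Mice of both groups received 4-hydroxytamoxifen at postnatal days 10 and 14, so the groups differ in the Cre transgene and in the recombination it brings about. They also differ in sex, since *Xist* and *Ddx3y* placed 1 of 3 control and 2 of 3 *Yap* cKO retinas as female. The *Rax* promoter limits Cre, and with it the loss of *Yap*, to a pair of cell types, namely Müller glia (the radial glia of the retina) and the inner, non-pigmented layer of the ciliary epithelium. In all other retinal cells the floxed allele stays unrecombined, and their RNA is part of every library. Between 24261799 and 35067068 fragments per retina were assigned to genes. The tissue label was borne out by rod photoreceptor markers, with *Gnat1*, the transducin subunit of rods, between 17600 and 19600 TPM (transcript counts scaled to gene length and to a common total per retina).

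YAP and its paralogue TAZ (*Wwtr1*) are coactivators that the kinases of the Hippo pathway keep out of the nucleus. In the nucleus they bind DNA through TEAD factors and switch on a small group of genes that are widely used as a readout of YAP activity. CCN proteins are secreted, cysteine-rich matricellular proteins that bind integrins, heparan sulphate proteoglycans and growth factors. *Ccn1* (formerly *Cyr61*) and *Ccn2* (formerly *Ctgf*) are the most widely used YAP readouts, and in the retina YAP is found mainly in Müller glia.

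The letters that TEAD factors are known to bind, GGAATG, were searched on both strands of the RefSeq promoter windows (GRCm38.p6), which run from 250 bases before to 50 bases after a gene's start. A window was held for 5 of the 10 genes, namely *Ccn1*, *Ankrd1*, *Axl*, *Crim1* and *Ptpn14*, and all 5 windows contained the motif. No window was held for the other genes, *Ccn2* among them. Among all 32817 windows 14.7% contained the motif, and among the 15172 windows of tested genes 12.4%. The genes were listed as known targets of YAP, which binds DNA through TEAD factors. Their higher share is therefore no independent support for that role. The motif includes GGAA, the core that ETS factors bind, so the letters are not particular to TEAD. The AP-1 letters TGANTCA were in 0 of the 5 windows, against 7.81% of all windows and 5.03% of those of tested genes. The sequences below show where the motif lies before 4 of the genes whose values follow, with the motif in capitals on the strand of the gene, where CATTCC is GGAATG read from the opposite strand. They are the 250 bases before the start of *Ccn1* (chr3:145649986-145650235, minus strand), and 30 bases around the motif of *Axl* (chr7:25788949-25788978, minus strand), *Crim1* (chr17:78200157-78200186, plus strand) and *Ptpn14* (chr1:189728110-189728139, plus strand).
Ccn1: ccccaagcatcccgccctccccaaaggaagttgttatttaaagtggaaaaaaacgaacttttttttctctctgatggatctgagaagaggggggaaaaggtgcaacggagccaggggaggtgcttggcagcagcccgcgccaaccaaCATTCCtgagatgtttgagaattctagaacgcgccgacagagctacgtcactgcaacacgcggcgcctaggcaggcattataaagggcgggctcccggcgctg
Axl: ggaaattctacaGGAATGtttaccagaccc
Crim1: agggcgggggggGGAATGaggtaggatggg
Ptpn14: cctccccggacgCATTCCtggcccgcccag
The first base of the motif lay 103 bases before the start of *Ccn1*, 233 before *Axl*, 79 before *Crim1* and 146 before *Ptpn14*. In *Ankrd1* the motif occurred at 210 and at 123 bases before the RefSeq start, which lies inside the gene as the count table annotates it, so these positions are not upstream of the gene as counted. A match of letters is a description of these windows and no measurement of binding.

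Expression of *Yap1* itself (ENSMUSG00000053110) was measured first, as the gene that the Cre deletes. It stood at 9.48, 9.52 and 9.83 TPM in the controls, here and below in the order YR612, YR613 and YR615, and at 3.99, 3.76 and 3.94 TPM in the *Yap* cKO retinas, in the order YR711, YR713 and YR714. Each *Yap* cKO retina thus held between 39.1% and 41.5% of the control mean, a range narrower than that of any of the targets described below except *Arhgef17* and *Crim1*. These values rest on 236, 303 and 249 counts, and counting error was not taken into account in comparing the ranges. The groups did not overlap, and the log2 fold change was -1.36 with an adjusted p of 0.000282. Adjusted p-values are from the quasi-likelihood test of edgeR, adjusted by the Benjamini-Hochberg method over the 16575 genes tested, and are called edgeR adjusted p below. In these whole-tissue libraries, fewer cells that express a gene and less RNA per cell cannot be told apart.

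Of the 10 genes, the CCN genes *Ccn2* and *Ccn1* showed the largest differences, at 3.38-fold and 2.61-fold lower in *Yap* cKO retinas, and *Ccn2* alone was differentially expressed by every criterion. *Ptpn14* was 1.64-fold and *Axl* 1.23-fold lower, without overlap between the groups, but neither passed the adjusted test, although *Ptpn14* passed it in 4 of 15 refits under other settings. *Crim1*, *Nuak2*, *Dlc1* and *Arhgef17* had log2 fold changes between -0.17 and 0.12, and none of the 4 passed. *Ccn3* and *Ankrd1* were at or near 0 counts in both groups. A gene was called where its edgeR adjusted p did not exceed 0.05, its levels differed at least 1.5-fold, and 1 group averaged 5 TPM or more. By all of these, 1 of the 8 tested genes was called lower and 0 higher, where 0.796% of all tested genes were called, 0.585% lower and 0.211% higher. At an adjusted p of at most 0.05 alone, the counts over the 8 genes were the same, against 1.49% of all tested genes, 0.989% lower and 0.501% higher. At an unadjusted p of at most 0.05, *Ccn1*, *Ccn2*, *Axl* and *Ptpn14* passed, all lower, as did 21.4% of all tested genes in either direction and 9.42% lower. In TPM, the groups were fully separate for 5 of the 8 (24.3% of all tested genes), with *Ccn1*, *Ccn2*, *Axl* and *Ptpn14* lower (9.04% of all tested genes) and *Arhgef17* higher (15.2% of all tested genes). The median log2 fold change of the 8 was -0.24, beside 0 over all tested genes, and 7 of the 8 were below 0, as were 49.7% of all tested genes. As the genes were chosen with earlier results of these data known, these shares are a description.

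**Figure D1:**
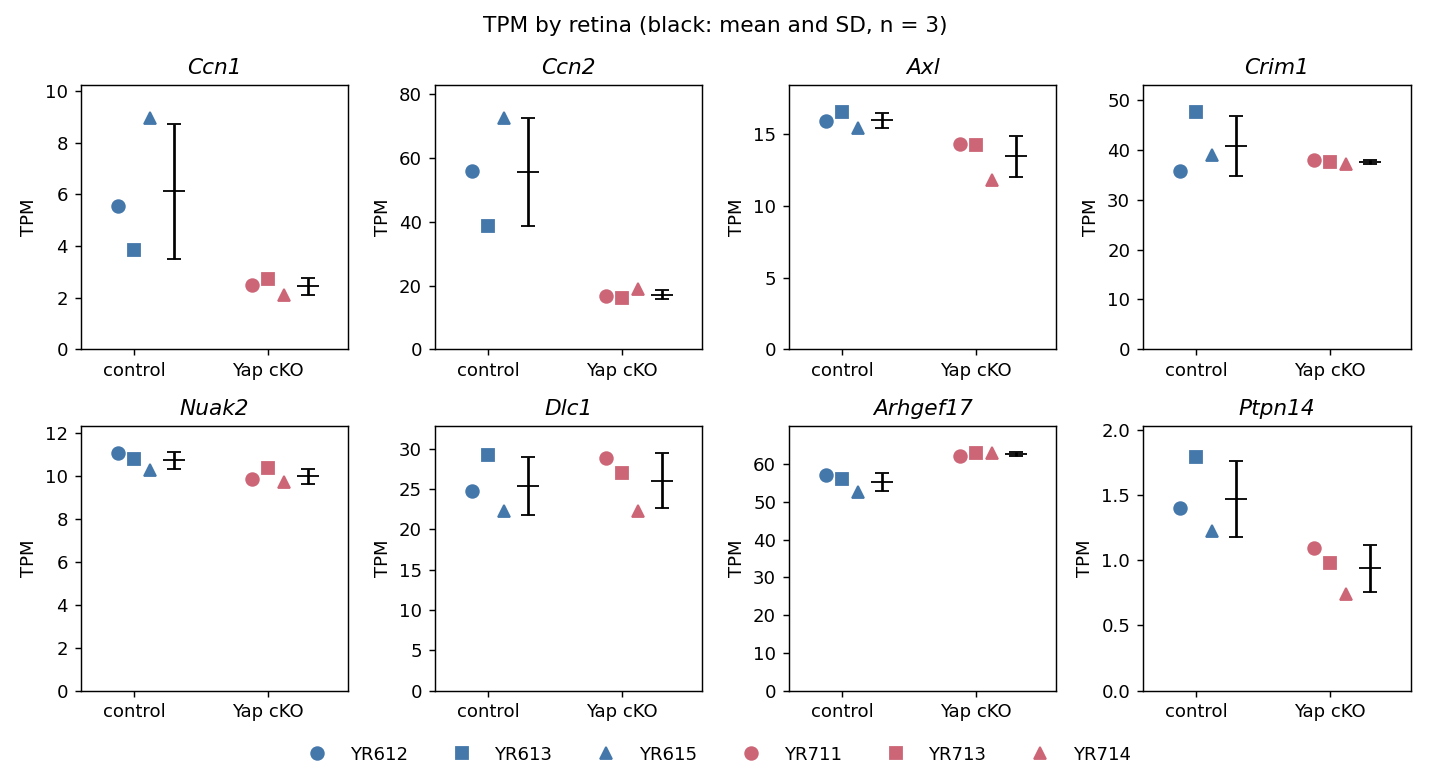
TPM (vertical axes, each from 0) of the 8 tested genes in the 3 control retinas (blue) and the 3 *Yap* cKO retinas (red), 1 symbol per animal, with the mean and SD of each group in black. *Ccn2* and *Ccn1* show a control group above a *Yap* cKO group with a smaller SD, *Axl* and *Ptpn14* a smaller gap, and *Dlc1* full overlap.

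*Ccn2* encodes connective tissue growth factor, a matricellular protein linked to matrix production (ENSMUSG00000019997, chromosome 10 of GRCm38, 24595442 to 24598683, 2861 exonic bases). The controls had 55.9, 38.7 and 72.4 TPM, from 1056, 758 and 1591 counts. The *Yap* cKO retinas had 16.6, 16.1 and 18.8 TPM, from 304, 401 and 367 counts. The lowest control retina thus lay above the highest *Yap* cKO retina, and the spread was much wider among controls. With a 95% interval of the log2 fold change from -2.23 to -1.29, *Ccn2* ranked 37th by p-value among all tested genes and 33rd among those that were lower (edgeR adjusted p = 0.00479). It passed every criterion in all 15 refits with another test, scaling, filter or correction or with a retina left out, with log2 fold changes between -1.98 and -1.53. *Gm15270* has exons on the opposite strand of *Ccn2*, and the counting was strand-specific.

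*Ccn1* encodes CYR61, an integrin-binding matricellular protein of the same family (ENSMUSG00000028195, chromosome 3, 145646976 to 145649981, 2019 exonic bases). It was read at far lower depth, with 74, 53 and 139 counts in the controls, and 32, 48 and 29 counts in the *Yap* cKO retinas. In TPM these were 5.56, 3.83 and 8.96 in the controls and 2.48, 2.73 and 2.10 in the *Yap* cKO retinas, again without overlap and with the wider spread among controls. The log2 fold change was -1.38 (standard error 0.306, 95% interval -2.07 to -0.70) and its edgeR adjusted p was 0.0624, above the threshold. Over the 15 refits the adjusted p ranged from 2.25e-08 (edgeR with no filter on low counts) to 0.221 (edgeR without *Yap* cKO YR713). *Ccn1* passed in 7, among them DESeq2 (0.00209), the correction for gene length (0.0466) and the fit with sex as a covariate (0.0414). It did not pass with limma-voom (0.0844) or with other size factors (edgeR, 0.053 to 0.0628). Nor did it pass in edgeR without YR612, YR615, YR711 or YR713 (0.128 to 0.221). The log2 fold change was -1.0 without control YR615 and -1.64 without control YR613.

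The 3 control retinas differed more in *Ccn1* and *Ccn2* than in almost any other expressed gene. The coefficient of variation among controls was 42.7% for *Ccn1* and 30.3% for *Ccn2*, and 99.4% and 98.1% of the 11994 genes at 5 TPM or more varied less. *Yap1*, by contrast, varied by 1.96% among the same retinas, and 4.74% of the expressed genes varied less. Among *Yap* cKO retinas the coefficient was 13.0% for *Ccn1*, above most expressed genes (76.2% varied less), and 8.22% for *Ccn2*, close to the middle (49.7% varied less). *Ccn1* averaged less than 5 TPM over the 6 retinas and was not itself among the genes it was set against. It had between 29 and 139 counts per retina, and *Yap1* between 236 and 699. Counting error was not taken into account for any gene in this comparison, and each coefficient rests on 3 retinas. Both CCN genes were lowest in control YR613 and highest in control YR615, and the ratio of *Ccn2* to *Ccn1* TPM was 10.1, 10.1 and 8.08 in the controls. This ratio was 6.70, 5.90 and 8.93 in the *Yap* cKO retinas. *Ccn2* stood at 29.9%, 28.9% and 33.7% of its control mean in the 3 *Yap* cKO retinas, and *Ccn1* at 40.6%, 44.7% and 34.4%.

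*Ccn1* and *Ccn2* are also known as immediate early genes, which rise within minutes of stimulation or handling of tissue. The summed TPM of 13 other immediate early genes, such as *Fos*, *Junb* and *Egr1*, was 234, 198 and 333 in the controls, so that the controls had the same order as in *Ccn1* and *Ccn2*. It was 172, 281 and 249 in the *Yap* cKO retinas, where the order was that of neither CCN gene and the range overlapped that of the controls. Of the 12 that were tested, 0 had an adjusted p of at most 0.05, and the median log2 fold change was -0.15. *Fos* had 34.3, 33.7 and 69.2 TPM in the controls and 32.4, 56.9 and 38.1 TPM in the *Yap* cKO retinas. *Junb* was at 24.1, 12.6 and 28.1 TPM against 7.76, 11.4 and 18.2 TPM, with an edgeR adjusted p of 0.201. The part of tissue handling in the spread of the CCN genes was not tested.

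**Figure D2:**
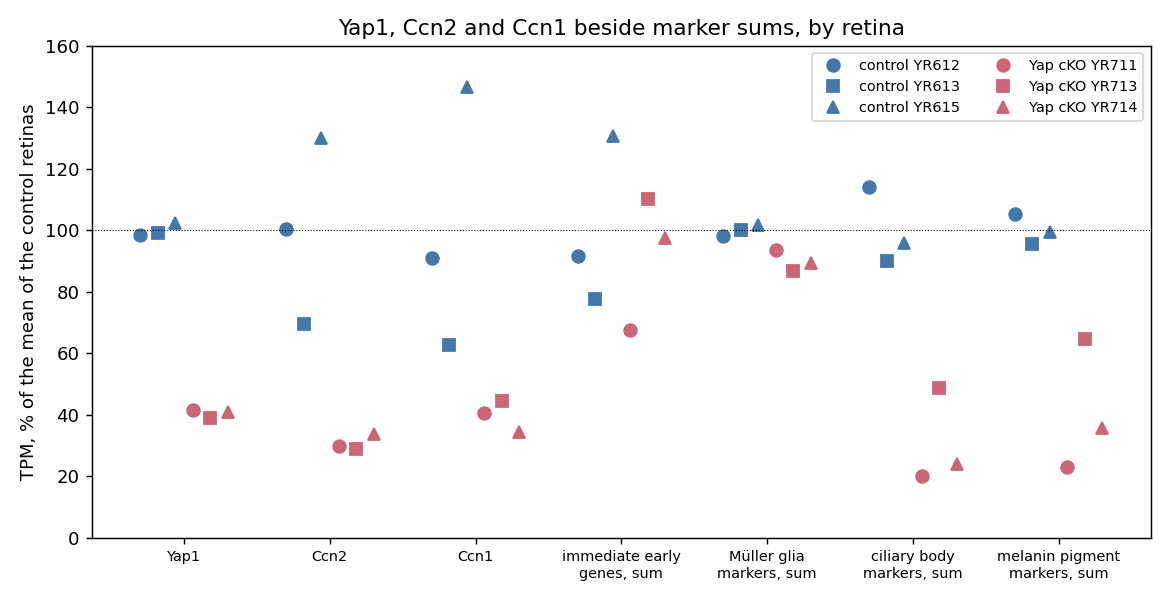
TPM of *Yap1*, *Ccn2* and *Ccn1* and summed TPM of 4 gene lists in each retina, as a percentage of the mean of the 3 control retinas (vertical axis, from 0; dotted line at 100%), with control retinas in blue and *Yap* cKO retinas in red. *Yap1* is tight in both groups, *Ccn2* and *Ccn1* are spread more widely among controls than among *Yap* cKO retinas, and the sum of immediate early genes overlaps between the groups while the ciliary body and melanin sums do not.

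Markers of the cells that the libraries could hold were summed per retina, to be read beside the CCN genes. The 10 Müller glia markers summed to 7070, 7190 and 7310 TPM in the controls and to 6720, 6250 and 6430 TPM in the *Yap* cKO retinas, without overlap. All 10 were tested and 0 passed, and *Glul*, glutamine synthetase, was the most abundant. Their median log2 fold change was -0.11, and 6 of the 10 were below 0. *Rlbp1* was lower and *Kcnj10* higher without overlap, with log2 fold changes of -0.36 and 0.28. Of the 5 markers of the ciliary body and margin, 4 were tested and 1 passed, *Optc* (opticin), with a log2 fold change of -3.41 (edgeR adjusted p = 0.00243). *Mfap4*, *Otx1* and *Wfdc1* had log2 fold changes of -2.25, -1.8 and -0.43, and the median of the 4 was -2.02. All 4 were thus below 0 (49.7% of all tested genes), and 3 were lower without overlap (9.04% of all tested genes). *Optc* was also the most abundant of the 5 markers, and their sum was 101, 79.6 and 84.8 TPM in the controls and 17.9, 43.0 and 21.1 TPM in the *Yap* cKO retinas. The 6 melanin pigment markers summed to 78.5, 71.2 and 74.1 TPM in the controls and to 17.2, 48.3 and 26.6 TPM in the *Yap* cKO retinas, 1 of the 6 passed, and *Dct* was the most abundant. All 6 had log2 fold changes below 0, with a median of -1.12, and 5 were lower without overlap. The 5 pigment epithelium markers, of which 0 passed, summed to 620, 686 and 650 TPM in the controls and to 193, 357 and 668 TPM in the *Yap* cKO retinas, with *Ttr* the most abundant, a median log2 fold change of -0.70 and overlap through YR714. Of 6 connective tissue fibroblast markers 4 were tested and 1 passed, the collagen gene *Col1a2* (log2 fold change -2.16, edgeR adjusted p = 0.00236), while *Col1a1*, *Col3a1* and *Pdgfra* had log2 fold changes of 0.08, 0 and -0.05 and the median was -0.03. Their sum was 13.0, 10.8 and 13.1 TPM in the controls and 8.98, 10.8 and 7.80 TPM in the *Yap* cKO retinas, with *Pdgfra* the most abundant. The 3 red blood cell markers, of which 0 passed, summed to 51.6, 42.2 and 76.0 TPM in the controls and to 30.4, 37.5 and 45.7 TPM in the *Yap* cKO retinas, with overlap and a median log2 fold change of -0.63. None of these markers was at 0 in all retinas. *Yap* cKO YR713 had the highest ciliary body and melanin sums of its group, whereas its *Ccn2* was the lowest of its group and its *Ccn1* the highest. Their part in the lower *Ccn2* and *Ccn1* was not tested. Endothelial markers, whose cells are known to express both CCN genes, summed to 237, 230 and 226 TPM in the controls and 259, 220 and 197 TPM in the *Yap* cKO retinas, with 0 of 8 passing the test, and 0 of 7 mural cell markers passed. For astrocytes, 1 of 4 markers passed, *Aldh1l1* (log2 fold change -0.79, edgeR adjusted p = 0.00437), while *Gfap*, *S100b* and *Pax2* had log2 fold changes of -0.33, 0.12 and 0.17 and did not pass, and *S100b* was higher in every *Yap* cKO retina.

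Of the remaining CCN genes, *Ccn4* was high enough to be tested and *Ccn3*, *Ccn5* and *Ccn6* were not. *Ccn3* (formerly *Nov*; ENSMUSG00000037362, chromosome 15, 54745702 to 54754039) had 0, 4 and 2 counts in the control retinas and 2, 4 and 2 counts in the *Yap* cKO retinas. This is at or near 3 counts, which correspond to between 0.12 and 0.164 TPM for this gene, so no difference was detectable at this depth. *Ccn4* (formerly *Wisp1*), a Wnt-inducible family member, had 20.6, 25.0 and 21.0 TPM in the controls and 28.5, 38.2 and 33.1 TPM in the *Yap* cKO retinas. Its levels were thus higher in every *Yap* cKO retina, with a log2 fold change of 0.53 (95% interval 0.26 to 0.79), and its edgeR adjusted p of 0.0632 missed the threshold as that of *Ccn1* did. *Ccn5* had 2 counts in each control retina and 2, 11 and 17 counts in the *Yap* cKO retinas. *Ccn6* had between 1 and 8 counts per retina, and neither gene was tested.

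Known receptors and coreceptors of CCN proteins, integrin subunits, *Lrp1*, *Lrp6* and *Notch1*, were looked at beside them. All 11 were tested and 0 passed, with log2 fold changes between -0.27 (*Itgb3*) and 0.37 (*Itgam*), both of them below 2 TPM, and a median of 0.10. *Itgb1*, the most common partner subunit, had 61.9 ± 4.05 TPM (SD, n = 3) in controls and 59.1 ± 2.92 TPM in *Yap* cKO retinas.

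Among the cell surface proteins, *Axl* encodes a receptor tyrosine kinase of the TAM family (ENSMUSG00000002602, chromosome 7, 25757273 to 25788705, 5033 exonic bases). It had 15.9, 16.5 and 15.4 TPM in the controls and 14.3, 14.2 and 11.8 TPM in the *Yap* cKO retinas. The groups did not overlap, but the gap was small, and YR714 was the lowest. A log2 fold change of -0.30 (95% interval -0.52 to -0.08), or -0.23 without YR714, was measured, and the edgeR adjusted p of 0.139 missed the threshold, as it did in all 15 refits. Of the 4 genes of its pathway, 0 passed. The ligand *Gas6* had 361 ± 17.2 TPM (SD, n = 3) in controls and 325 ± 37.1 TPM in *Yap* cKO retinas, and the sister receptors *Tyro3* and *Mertk* had log2 fold changes of -0.08 and 0.01. The other ligand, *Pros1* (protein S), had 15.4, 15.4 and 17.2 TPM in the controls and 19.0, 30.6 and 30.5 TPM in the *Yap* cKO retinas, without overlap, at an edgeR adjusted p of 0.0887.

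*Crim1* encodes a transmembrane protein that binds bone morphogenetic proteins (ENSMUSG00000024074, chromosome 17, 78200248 to 78376592). It had 35.8, 47.5 and 38.9 TPM in the controls and 37.9, 37.6 and 37.2 TPM in the *Yap* cKO retinas. The *Yap* cKO values fell inside the range of the controls and were nearly identical, with a coefficient of variation of 0.956%, and 1.04% of the expressed genes varied less in that group. Counting error was not taken into account here either. The log2 fold change was -0.17 (95% interval -0.38 to 0.04, edgeR adjusted p = 0.315), an interval that lay wholly above that of *Ccn2*. Exons of *Fez2* lie on the opposite strand.

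*Nuak2* encodes a kinase related to AMP-activated kinase that acts on actomyosin contractility (ENSMUSG00000009772, chromosome 1, 132316126 to 132333488). Its levels were 11.1, 10.8 and 10.3 TPM in the control retinas and 9.86, 10.4 and 9.74 TPM in the *Yap* cKO retinas, with overlap. Its log2 fold change of -0.16 had a 95% interval from -0.39 to 0.08, and the gene did not pass (edgeR adjusted p = 0.397). *Crim1* and *Nuak2* depended on the scale. In CPM, counts relative to the library total scaled by TMM (edgeR's normalization by trimmed means), both were lower in *Yap* cKO retinas without overlap. This brought the genes lower without overlap to 6 of 8, against 12.4% of all tested genes, and those higher to 0 of 8, against 12.3%. For a single gene, TPM and CPM differ by a factor per retina that is the same for all genes. Over all tested genes, the median log2 ratio of *Yap* cKO to control was 0.06 in mean TPM and 0 with TMM.

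*Ptpn14* encodes a tyrosine phosphatase that binds YAP and keeps it in the cytoplasm, so that it is both a target and an inhibitor (ENSMUSG00000026604, chromosome 1, 189728268 to 189876695, 13413 exonic bases). It was the least expressed of the tested genes, at 1.40, 1.79 and 1.22 TPM in the controls and 1.09, 0.977 and 0.742 TPM in the *Yap* cKO retinas. Counts were 124, 165 and 126 in the controls and 93, 114 and 68 in the *Yap* cKO retinas, without overlap in TPM. The log2 fold change was -0.71 (95% interval -1.13 to -0.30) and the edgeR adjusted p 0.0904, and with means below 5 TPM the gene could not meet every criterion. *Ptpn14* is in the highest decile of exonic length among tested genes (9602 to 123179 exonic bases), whose median log2 fold change was 0.21, whereas it was -0.17 in the lowest decile. The trend differed between libraries of 1 group: Spearman's coefficient of expression relative to the 6-retina mean with length, over genes that are not independent, was -0.413, 0.172 and -0.405 in the controls and 0.396, 0.385 and -0.151 in the *Yap* cKO retinas. Control YR613, the lowest control in *Ccn1* and *Ccn2*, and *Yap* cKO YR714 thus stood apart from their groups. With each retina corrected for this trend of expression with length, the log2 fold change of *Ptpn14* was -0.93 and its edgeR adjusted p was 0.0112.

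*Dlc1* and *Arhgef17* act in opposite ways on the small GTPases that control actin tension: *Dlc1* encodes a GTPase-activating protein that switches them off, and *Arhgef17* an exchange factor that switches them on. *Dlc1* (ENSMUSG00000031523, chromosome 8, 36567751 to 36953143, 14694 exonic bases) had 24.7, 29.2 and 22.2 TPM in the controls and 28.8, 27.0 and 22.2 TPM in the *Yap* cKO retinas. The groups overlapped fully, and the log2 fold change was -0.02 (95% interval -0.28 to 0.24, edgeR adjusted p = 0.933). It was -0.27 with the correction for gene length and 0.06 with sex as a covariate, neither of which passed.

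*Arhgef17* (ENSMUSG00000032875, chromosome 7, 100869752 to 100932107, 10795 exonic bases) had 57.1, 55.9 and 52.6 TPM in the controls and 62.1, 62.8 and 63.0 TPM in the *Yap* cKO retinas. All *Yap* cKO retinas were thus above all controls in TPM, and they were nearly identical to each other. Its log2 fold change of 0.12 (95% interval -0.04 to 0.29) did not pass (edgeR adjusted p = 0.355). In CPM the groups overlapped. Over the 15 refits its log2 fold change was between 0.08 and 0.17 in 14, and -0.04 with the correction for gene length. *Arhgef17* shares 104 exonic bases with *Mir3102* on the same strand.

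*Ankrd1* encodes an ankyrin repeat protein of the nucleus and the sarcomere and is known as a YAP target in many cultured cells (ENSMUSG00000024803, chromosome 19, 36111961 to 36120099). It had 1 count in control YR612 and 0 in each of the other retinas, below the 3 counts (0.119 to 0.163 TPM) that a count of 0 allows, so a change was not detectable in these retinas.

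**Figure D3:**
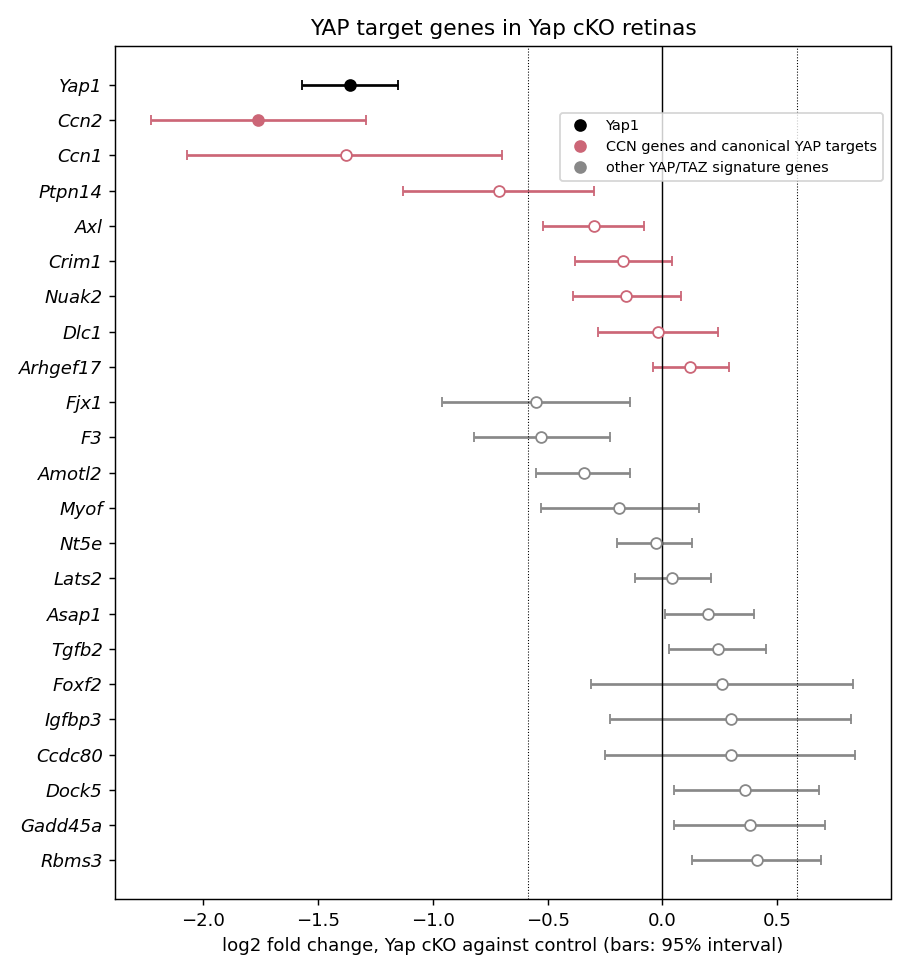
Log2 fold change of *Yap* cKO against control (horizontal axis) with its 95% interval for *Yap1* (black), the 8 tested target genes (red) and 14 other genes of a YAP/TAZ target signature (grey), with filled symbols for genes that passed every criterion and dotted lines at a 1.5-fold change. Only *Yap1* and *Ccn2* are filled, and the signature genes spread over both sides of 0.

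By level, the genes had a different order in the groups. In control retinas the order of mean TPM was *Ccn2* (55.7), *Arhgef17* (55.2), *Crim1* (40.7), *Dlc1* (25.4), *Axl* (15.9), *Nuak2* (10.7), *Ccn1* (6.11) and *Ptpn14* (1.47), and the single control values of *Ccn2* overlapped those of *Arhgef17* and of *Crim1*, while all other neighbours in this order were apart in every retina. In *Yap* cKO retinas *Arhgef17* was first at 62.6 TPM, followed by *Crim1* (37.6), *Dlc1* (26.0), *Ccn2* (17.2), *Axl* (13.5), *Nuak2* (9.99), *Ccn1* (2.44) and *Ptpn14* (0.935). By its mean *Ccn2* was level with *Arhgef17* in controls, above it in YR615 and below it in YR612 and YR613, and in every *Yap* cKO retina it was below *Arhgef17*, *Crim1* and *Dlc1*. Single values of neighbours did not overlap in the *Yap* cKO retinas. The 10 genes summed to 208, 204 and 222 TPM in the controls and to 173, 172 and 166 TPM in the *Yap* cKO retinas.

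Other genes of the published YAP/TAZ target signature lay on both sides of 0, with 5 of 14 below it, against 49.7% of all tested genes. All 14 were tested and 0 passed, with edgeR adjusted p-values between 0.0834 and 0.803 and a median log2 fold change of 0.22. In TPM, *Amotl2*, *F3* and *Fjx1* were lower without overlap (9.04% of all tested genes) and *Lats2*, *Dock5* and *Rbms3* higher (15.2% of all tested genes). In CPM the same genes were separate except *Lats2*, which overlapped. *F3* (tissue factor) had 13.0, 13.7 and 14.6 TPM in the controls and 9.54, 9.0 and 11.3 TPM in the *Yap* cKO retinas, which gave a log2 fold change of -0.53 with an edgeR adjusted p of 0.0834. *Amotl2*, an angiomotin that binds YAP, had 24.1, 22.4 and 25.2 TPM in the controls and 18.8, 19.1 and 20.8 TPM in the *Yap* cKO retinas (log2 fold change -0.34, edgeR adjusted p = 0.0967). *Fjx1*, a homologue of the fly kinase four-jointed, had a log2 fold change of -0.55, at 3.21 TPM in controls and 2.27 TPM in *Yap* cKO retinas on average. At the other end, *Rbms3*, which encodes an RNA-binding protein, had 4.47, 6.38 and 5.44 TPM in the controls and 7.88, 7.90 and 6.71 TPM in the *Yap* cKO retinas (log2 fold change 0.41, edgeR adjusted p = 0.122), and *Gadd45a*, a stress gene, had a log2 fold change of 0.38. *Lats2*, the Hippo kinase that YAP is known to induce in a feedback loop, had a log2 fold change of 0.04.

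The partners of YAP did not pass the test either. *Wwtr1* (TAZ) had 12.9, 14.3 and 14.6 TPM in the controls and 12.5, 13.9 and 11.7 TPM in the *Yap* cKO retinas, with overlap and a log2 fold change of -0.18 (edgeR adjusted p = 0.303). It was thus more abundant than *Yap1* in every retina. *Tead1*, *Tead3* and the TEAD cofactor *Vgll4* had log2 fold changes of 0.08, -0.03 and 0.01. *Tead2* was lower in each *Yap* cKO retina, at 4.38, 5.04 and 4.98 TPM against 6.49, 6.19 and 6.06 TPM, but did not pass (log2 fold change -0.43, edgeR adjusted p = 0.109), and *Tead4* was too low to be tested.

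Genes of the actin tension pathway, in which *Nuak2*, *Dlc1* and *Arhgef17* act, were mostly close to 0. Of 12 genes for these GTPases, their kinases and their regulators, *Dlc1* and *Arhgef17* among them, all were tested and 0 passed, with log2 fold changes from -0.45 (*Stard8*) to 0.41 (*Ect2*) and a median of 0.05. SRF and its MRTF cofactors share many targets with YAP. Of a list of 12 genes, made up of *Srf*, its cofactors *Mrtfa* and *Mrtfb* and targets of theirs, 11 were tested and 1 passed. This was *Myl9*, a regulatory light chain of smooth muscle myosin, at 34.0, 30.0 and 34.3 TPM in the controls and 20.5, 15.6 and 12.1 TPM in the *Yap* cKO retinas (log2 fold change -1.09, edgeR adjusted p = 0.0228). The smooth muscle genes *Acta2* and *Tagln* had log2 fold changes of -0.24 and -0.54 and did not pass.

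Finally, the genes whose levels over the 6 retinas were closest to those of *Ccn2* and *Ccn1* were sought among tested genes of at least 5 TPM, as a description. Likeness was the root mean square difference of log2 CPM after each gene was centred on its own mean. The difference between the groups is part of this distance, and all genes named had log2 fold changes between -1.76 and -1.03. A small distance therefore does not show that a gene followed *Ccn2* or *Ccn1* within a group. *Yap1*, for example, varied by 1.96% among controls, where *Ccn2* varied by 30.3%. For *Ccn2* the closest were *Cryab* (0.235), which encodes the small heat shock protein alpha B crystallin, *S100a6* (0.262), a calcium-binding protein, *Serping1* (0.299), the C1 inhibitor, *Yap1* itself (0.312) and *Qrfpr* (0.319), a neuropeptide receptor. For *Ccn1* they were *Crhbp* (0.270), a secreted protein that binds corticotropin-releasing hormone, *Serping1* (0.295), *Ccn2* (0.299), *Anxa1* (0.299), an annexin, and *Sostdc1* (0.309), a secreted Wnt and BMP antagonist. *Ccn2* was thus among the 5 closest of 11994 candidates for *Ccn1*. *Ccn1*, whose mean over the 6 retinas was below 5 TPM, was not a candidate for *Ccn2*, although its distance of 0.299 was as small as that of *Serping1*. *Cryab* had 104 TPM in controls and 39.4 TPM in *Yap* cKO retinas (log2 fold change -1.46, edgeR adjusted p = 0.000285), and *Crhbp* had 48.7 and 22.3 TPM (log2 fold change -1.18, edgeR adjusted p = 0.0207).

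**Figure D4:**
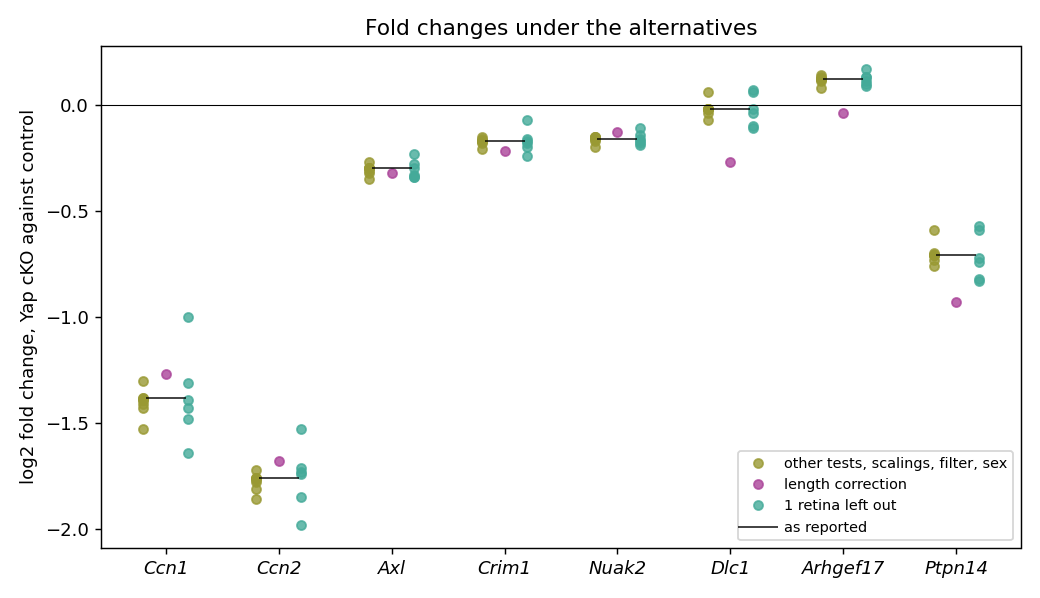
Log2 fold change of *Yap* cKO against control (vertical axis) of the 8 tested genes as reported (black lines) and in 15 refits: with other tests, scalings, filter or sex as a covariate (olive), with the correction for gene length (purple) and with 1 retina left out (green). *Ccn2* stays between -1.98 and -1.53, *Ccn1* ranges from -1.64 to -1.0, and *Dlc1* and *Arhgef17* cross 0.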

How the data were processed

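RNA of 3 control and 3 *Yap* cKO retinas was extracted and made into stranded libraries of polyadenylated RNA. The authors aligned the reads to GRCm38 with STAR 2.7.3a and counted fragments per gene with featureCounts 1.6.2 (strand setting 2, annotation release 98 per the file header). The deposited values are raw counts, 1 column per retina, beside each gene's exonic length. Members were matched by symbol. TPM were computed from counts and lengths. Genes were filtered with filterByExpr, scaled by TMM (factors 0.986 to 1.02) and tested with the quasi-likelihood test of edgeR 4.0.16 in R 4.3.3 over 16575 genes (common dispersion 0.0126), with Benjamini-Hochberg adjustment. The labels name no batch, litter or sex. The text names the members, the genes of fixed lists, and the 5 genes most like *Ccn1* and *Ccn2*. Members and lists were chosen with earlier results of these data known. Alternatives used DESeq2 1.42.0, limma-voom 3.58.1, edgeR's likelihood ratio test, other size factors, other filters and thresholds, a loess correction of each retina for gene length (span 0.3), sex as a covariate (*Xist* and *Ddx3y* placed 1 of 3 control and 2 of 3 *Yap* cKO retinas as female), and each retina left out. Steps were tested on simulated data. With 3 retinas a side, the smallest two-sided p of an exact permutation test is 0.1, so none is given. Each column carries its own animal code.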

Additional observations from a re-analysis of the deposited data

How the results depend on the processing

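The count of differentially expressed genes was 132 of the 16575 tested. Of the same 16575 genes, it was 263 with DESeq2, 291 with edgeR's likelihood ratio test and 222 at an adjusted p of at most 0.1. It was 155 of them with the correction for gene length and 110 with sex as a covariate. With no filter on low counts it was 369 of 30129. With 1 retina left out it ranged from 38 of 16830 (without control YR615) to 516 of 16858 (without control YR613). It was 40 of 16913 without control YR612, 68 of 16859 without *Yap* cKO YR713 and 448 of 16841 without *Yap* cKO YR714. Of the 10 genes examined, 1 (*Ccn2*) was called, and 2 (*Ccn1* and *Ccn2*) were called with DESeq2, the likelihood ratio test, no filter, the correction for gene length, sex as a covariate and an adjusted p of at most 0.1. More of all genes were called in each of these settings too, except with sex as a covariate. With 1 retina left out, 1 to 2 of the 10 were called, the latter without control YR613 or *Yap* cKO YR714. Among the left-out retinas, these gave the most calls over all genes. Of the 14 other signature genes, 0 to 1 were called with 1 retina left out (*F3*, without *Yap* cKO YR714), against 0 with all retinas. The log2 fold change of *Arhgef17* turned to -0.04 with the length correction, and that of *Dlc1*, -0.02 with all retinas, was 0.06 with sex as a covariate, 0.06 without *Yap* cKO YR714 and 0.07 without control YR613 (from -0.11 to 0.07 over the left-out retinas). The causes were not tested. The adjusted p of *Ptpn14* was at most 0.05 in 4 of 15 refits, at 0.0275 with DESeq2, 0.0167 with the likelihood ratio test, 0.00211 with no filter and 0.0112 with the length correction, and between 0.0742 and 0.291 in the others. *Ccn3* and *Ankrd1*, at 0 to 4 counts per retina, were removed by the filter on low counts, and *Ccn1* had between 29 and 139 counts per retina. No paired analysis was possible because the labels give the groups no shared replicate numbers.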
